A study of Mus musculus with 15 samples.

Results

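The 40 genes described here are interferon response genes, chosen by symbol from a list that joins genes mainly induced by type I interferon with genes mainly induced by interferon gamma. They are 40 of the 24411 genes in the deposited tables, and all 40 were among the 14098 genes that passed the filter on low counts and were tested. The study profiled polyA RNA of liver from male FVB/NJ mice in 5 groups of 3 libraries. WT was wild-type liver. The other groups carried combinations of S45Y-CTNNB1 (a mutant β-catenin), G31A-NFE2L2 (a mutant NRF2) and hMET (human MET, the receptor of hepatocyte growth factor). CTNNB1_NFE2L2_MET carried all 3, CTNNB1_MET carried mutant β-catenin with MET, CTNNB1_NFE2L2 carried mutant β-catenin with mutant NRF2, and NFE2L2_MET carried mutant NRF2 with MET. Strain and sex were shared by all groups. The labels give no age, vector, promoter, delivery route or time after delivery, and they do not say whether the tissue was taken from a tumour nodule or from whole liver. The labels mark 1 library each of WT, CTNNB1_NFE2L2_MET and CTNNB1_MET as added (replicate 3 here) and do not say what the mark means. Whether each library had its own animal is not stated either, and p-values reflect only the variation among these libraries, which may be technical.

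Interferons are secreted proteins that alert cells to viruses and other microbes. Type I interferons act through the receptor IFNAR1 and IFNAR2, and the signal reaches the nucleus as a complex that holds STAT2 and IRF9 and binds the interferon-stimulated response element (ISRE). Interferon gamma, made mostly by T cells and NK cells, acts through IFNGR1 and IFNGR2, and its signal reaches genes at the gamma-activated site (GAS). Hepatocytes, Kupffer cells and infiltrating leukocytes can all respond. IFIT, OAS and MX proteins act on viral RNA and viral particles, while the guanylate-binding proteins (Gbp) and immunity-related GTPases (Irgm1, Irgm2, Igtp and others) act on the membrane compartments that hold intracellular microbes. ISG15 is a ubiquitin-like modifier, and USP18 removes it from proteins and also damps signalling at the type I receptor.

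The promoters of members from both arms are shown first, since the lists are named for the signal that drives them and such stretches can hold the elements by which that signal is known to act. Each sequence is the 150 bases before a RefSeq start of transcription, written 5′ to 3′ on the strand of the gene from the GRCm38.p6 table of promoter windows, with matches to the ISRE letters GAAANNGAAA or the GAS letters TTCNNNGAA in capitals, both strands searched. Igtp and Tgtp1 were added to the set after their values were seen.
Ifit1, chr19:34640739-34640888, plus strand: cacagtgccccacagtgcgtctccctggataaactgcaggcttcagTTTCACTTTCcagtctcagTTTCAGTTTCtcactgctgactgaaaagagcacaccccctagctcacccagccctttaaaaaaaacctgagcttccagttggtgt
Isg15, chr4:156200819-156200968, minus strand: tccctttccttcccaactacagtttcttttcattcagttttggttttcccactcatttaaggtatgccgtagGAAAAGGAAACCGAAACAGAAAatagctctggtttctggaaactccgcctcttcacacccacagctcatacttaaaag
Irf1, chr11:53769864-53770013, plus strand: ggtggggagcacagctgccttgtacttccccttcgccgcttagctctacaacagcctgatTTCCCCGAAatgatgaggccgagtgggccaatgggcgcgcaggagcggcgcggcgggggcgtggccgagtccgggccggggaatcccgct
Irf7, chr7:141266425-141266574, minus strand: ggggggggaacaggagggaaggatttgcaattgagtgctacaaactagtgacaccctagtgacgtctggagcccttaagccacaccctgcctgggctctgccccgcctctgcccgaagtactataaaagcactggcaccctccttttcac
Gbp2, chr3:142620513-142620662, plus strand: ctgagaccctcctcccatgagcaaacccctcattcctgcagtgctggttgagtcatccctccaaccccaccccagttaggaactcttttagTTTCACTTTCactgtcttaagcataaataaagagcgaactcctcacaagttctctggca
Irgm1, chr11:48871421-48871570, minus strand: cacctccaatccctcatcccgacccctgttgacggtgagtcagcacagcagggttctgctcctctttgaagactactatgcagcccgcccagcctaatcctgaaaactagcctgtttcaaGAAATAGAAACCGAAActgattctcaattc
Igtp, chr11:58199406-58199555, plus strand: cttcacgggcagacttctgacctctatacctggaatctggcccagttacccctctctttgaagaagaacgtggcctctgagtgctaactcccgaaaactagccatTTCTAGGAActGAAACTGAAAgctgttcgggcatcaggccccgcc
Tgtp1, chr11:48992247-48992396, minus strand: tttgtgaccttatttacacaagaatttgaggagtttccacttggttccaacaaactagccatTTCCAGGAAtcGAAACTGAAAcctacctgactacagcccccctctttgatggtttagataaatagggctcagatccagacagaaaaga
Ifit1 carried 2 ISRE matches in the stretch shown, Isg15 carried 3 that overlap each other, and Gbp2 carried 1. Irgm1 carried 2 overlapping ISRE matches. Igtp and Tgtp1 each carried 1 GAS match followed after 2 bases by 1 ISRE match. Irf1 carried 1 GAS match and Irf7 no match to either. Over whole windows of 300 bases (250 before to 50 after the start), 28 of the 40 members had at least 1 window, and 17 of these 28 genes held an ISRE match and 9 a GAS match. Counted by window, 18 of the 33 windows of these genes held an ISRE match and 9 a GAS match. Of all 32851 windows of that length in the table, 3.44% held the ISRE letters and 8.3% the GAS letters. By role, an ISRE match was found in 4 of 7 Ifit, Oas and Mx genes with a window and in 6 of 6 Gbp, Irgm and Igtp genes. A GAS match was found in 2 of those 7 and 3 of those 6. A match describes the letters only.

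Many members are neighbours in the mouse genome (GRCm38.p6 annotation of RefSeq). Ifit1, Ifit2 and Ifit3 lie between bases 34550550 and 34650009 of chromosome 19. On chromosome 5, Oas1a, Oas2 and Oas3 lie between 120730333 and 120907544, and Oasl1 and Oasl2 between 114896926 and 114937911. Gbp2, Gbp3 and Gbp7 share chromosome 3 (142530336 to 142638008), while Gbp4 and Gbp6 lie on chromosome 5. The GTPase genes of chromosome 11 lie in 2 separate places, Irgm1, Tgtp1 and Ifi47 between 48865245 and 49096987 and Igtp and Irgm2 between 58199556 and 58222783. Such paralogs share sequence, and counts of near-identical copies are uncertain.

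Gene counts per library ranged from 14084343 to 20702618, and between 8.69 and 25.9% of reads were unmapped. The unmapped share differed with the groups, at 19.8 to 25.9% in WT, 15.8 to 19.1% in CTNNB1_MET and 12.7 to 14.2% in NFE2L2_MET. It was 9.71 to 11.8% in CTNNB1_NFE2L2 and 8.69 to 11.2% in CTNNB1_NFE2L2_MET. No transgenic library reached the WT range, and the part of this in the differences from WT was not tested. Levels are given as CPM, counts scaled to the size of the library with TMM factors, and differences as log2 fold changes ± standard error from the edgeR quasi-likelihood test with Benjamini-Hochberg adjustment over all 14098 genes. A gene is called higher or lower at an adjusted p under 0.05. As a check of the labels, the NRF2 target Nqo1 stood at 5.38 ± 0.489 CPM in WT and 9.14 ± 1.78 in CTNNB1_MET, against 100.6 ± 23.9, 248 ± 4.52 and 268 ± 23.7 (SD, n = 3 each) in NFE2L2_MET, CTNNB1_NFE2L2 and CTNNB1_NFE2L2_MET. In CTNNB1_MET, without NRF2, it was still called higher than WT, by 0.76 ± 0.18 (SE, adjusted p = 0.0106). The β-catenin target Axin2 differed from WT by 2.37 ± 0.23 (adjusted p = 1.47e-06) in CTNNB1_NFE2L2_MET, 1.72 ± 0.23 (adjusted p = 3.16e-05) in CTNNB1_NFE2L2 and 0.90 ± 0.23 (adjusted p = 0.0155) in CTNNB1_MET. In NFE2L2_MET it was lower, at -1.11 ± 0.26 (adjusted p = 0.00687). The mouse gene Nfe2l2 and the mouse gene Met passed in no comparison with WT. The mouse gene Ctnnb1 was higher than in WT by 0.72 ± 0.11 on the log2 scale (SE, adjusted p = 9.31e-05) in CTNNB1_NFE2L2_MET and by 0.46 ± 0.11 (adjusted p = 0.00363) in CTNNB1_NFE2L2. It stood at 0.35 ± 0.11 (adjusted p = 0.0455) in CTNNB1_MET and, with no β-catenin transgene, at 0.33 ± 0.11 (adjusted p = 0.0483) in NFE2L2_MET. These last calls were lost under several alternatives, with adjusted p-values of 0.0869 and 0.247 under total-count scaling. They were also lost when single libraries were left out, at 0.0513 to 0.205 for CTNNB1_MET (any library but WT replicate 3, CTNNB1_NFE2L2_MET replicate 1 or CTNNB1_MET replicate 3) and 0.0544 to 0.157 for NFE2L2_MET (any but these and CTNNB1_MET replicate 1). Scaling by total counts instead of TMM put the median gene at up to 0.375 on the log2 scale (CTNNB1_NFE2L2_MET against NFE2L2_MET, 0.011 with TMM) and changed the balance of calls over all genes. The higher and lower genes were then 5226 and 1892 (3739 and 3300 with TMM) in CTNNB1_NFE2L2_MET against WT, 4507 and 2127 (3456 and 3411) in CTNNB1_NFE2L2 against WT, and 1372 and 2517 (1909 and 1394) in NFE2L2_MET against WT. They were 6133 and 795 (2314 and 2011) in CTNNB1_NFE2L2_MET against NFE2L2_MET and 4970 and 1038 (2597 and 2168) against CTNNB1_MET. All differences that follow are relative to the median gene.

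One WT library, replicate 2, stood apart over all genes and not only for these members. The chi-square per gene between WT libraries was 98.84 and 115.6 for its pairs with replicates 1 and 3. For the pair of replicates 1 and 3 it was 39.51. How many of all genes were highest in replicate 2 was not counted, so the member counts that follow have no share to stand beside. WT replicate 2 was the highest of the 3 WT libraries for 27 of the 40 members and exceeded both others by over 1.5 times for 15 of them. Zbp1, a sensor of Z-form nucleic acid that can start necroptosis, was at 1.87, 8.54 and 0.577 CPM in the 3 WT libraries. The GTPase gene Irgm2 was at 26.2, 66.8 and 20.1 CPM. In both genes the high value is that of replicate 2.

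In each transgenic group most members were higher than in WT, and the triple combination had the most. Against WT, 36 of 40 members were higher and 0 lower in CTNNB1_NFE2L2_MET, where 26.5% of all tested genes were higher and 23.4% lower. CTNNB1_NFE2L2 had 30 higher and 2 lower (24.5% and 24.2% of all genes), NFE2L2_MET had 27 higher and 0 lower (13.5% and 9.89%), and CTNNB1_MET had 23 higher and 0 lower (11% and 6.22%). Median log2 fold changes over the 40 members were 1.75, 1.25, 0.97 and 0.93 in that order, beside all-gene medians of -0.02, -0.01, 0.00 and 0.00. Without CTNNB1_MET replicate 1, the count for CTNNB1_MET was 15. Without WT replicate 2, the members called in either direction were 38, 35, 34 and 27 in the same order, beside 36, 32, 27 and 23 with it. With all libraries, 49.9%, 48.7%, 23.4% and 17.2% of all genes were called in either direction. In the joint test of any difference among the 5 groups, 38 of 40 members passed, beside 65.5% of all genes. Ifi35 and Parp9 were the exceptions.

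Of the 40, 18 members were higher in all 4 transgenic groups. Those whose calls held in all 4 groups whichever library was left out were Ifit1, Ifit3, Oas1a, Isg15, Usp18, Ifi44, Bst2, Gbp3, Irgm1 and Tgtp1. A further 10 members were higher in 3 groups, 5 in 2 and 4 in 1. Stat2, Ifi35 and Parp9 were higher in none. The heat map of the 40 genes shows the pattern by library.

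**Figure D1:**
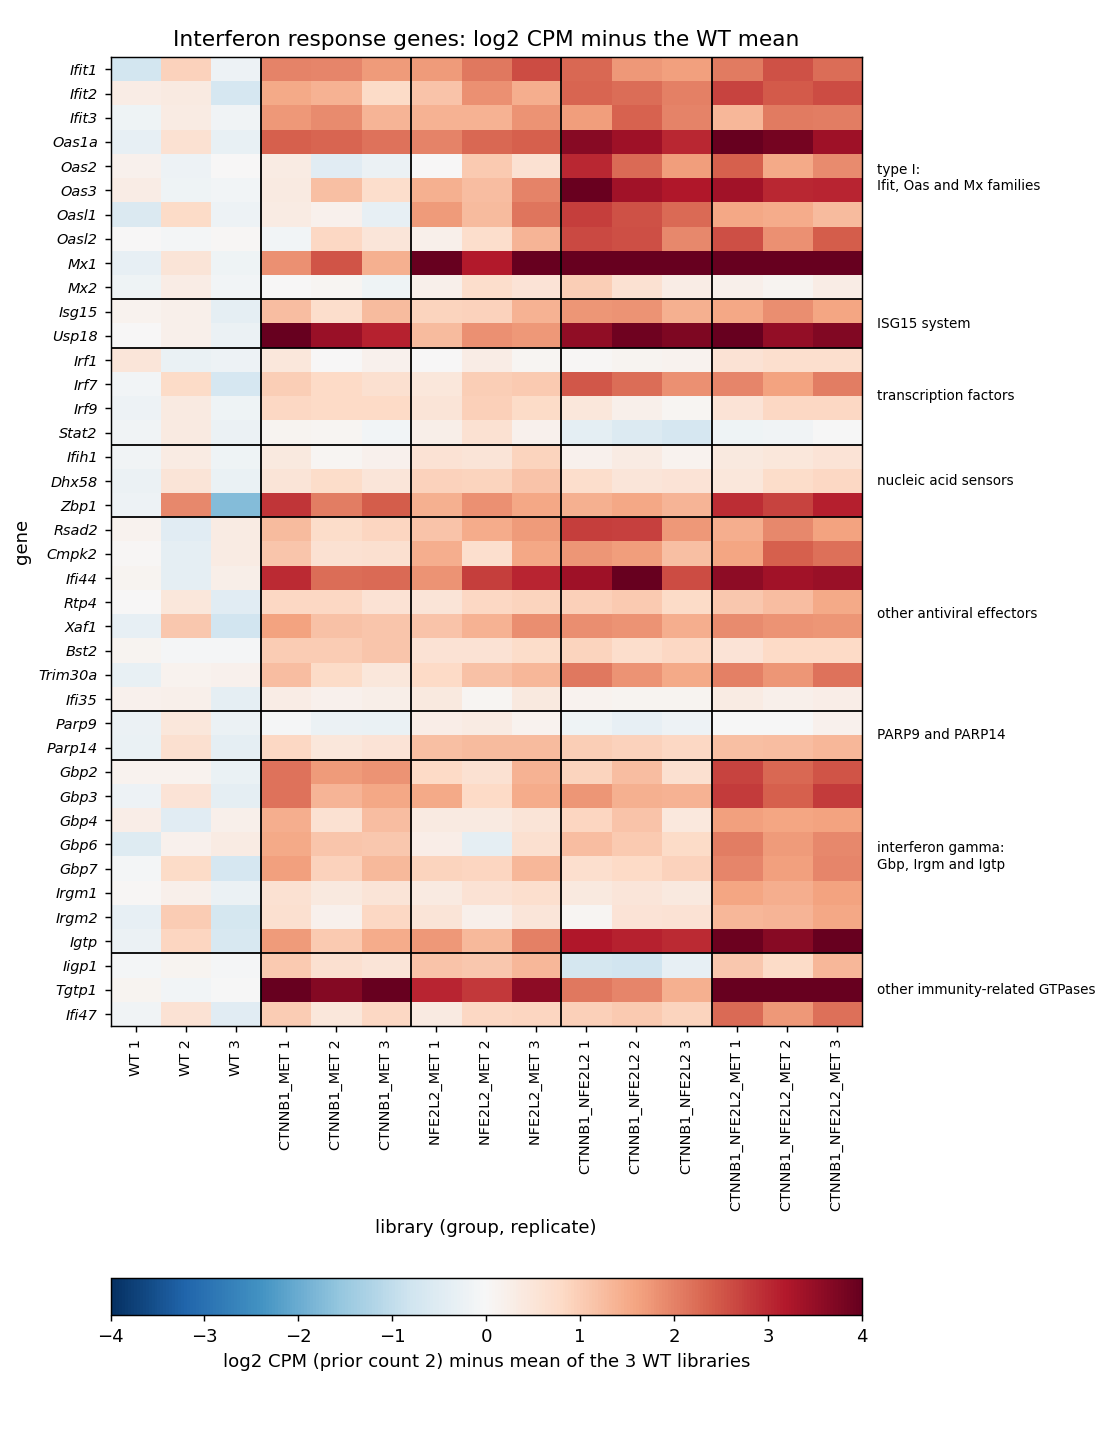
Heat map of the 40 members (vertical axis, ordered by role) in the 15 libraries (horizontal axis), coloured by log2 CPM minus the mean of the 3 WT libraries, with colours saturating at 4 above and 4 below. Oas2, Oasl1 and Oasl2 are near the WT colour in CTNNB1_MET and strongly coloured in CTNNB1_NFE2L2, while Tgtp1 is strongest in the groups with β-catenin and MET.

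Markers of several other cells differed between the groups. Summed CPM of 13 macrophage and Kupffer cell markers ranged from 305 to 366 in WT, 451 to 559 in CTNNB1_MET, 685 to 759 in NFE2L2_MET, 685 to 947 in CTNNB1_NFE2L2 and 748 to 1080.5 in CTNNB1_NFE2L2_MET. Of the 13 markers, 7, 12, 11 and 12 were higher than in WT in these transgenic groups. The count in CTNNB1_MET was 2 without WT replicate 1. Among all genes 11%, 13.5%, 24.5% and 26.5% were higher in the same order of groups, and 6.22%, 9.89%, 24.2% and 23.4% lower. These shares stand beside every count against WT in this paragraph, and on such short lists a count of 1 says little. Summed CPM of 14 T and NK cell markers, the cells that make interferon gamma, ranged from 5.75 to 6.90 in WT, 6.12 to 8.13 in NFE2L2_MET and 5.67 to 10.6 in CTNNB1_NFE2L2. In the groups with β-catenin and MET it lay above every WT library, at 10.8 to 13.2 in CTNNB1_MET and 11.4 to 17.8 in CTNNB1_NFE2L2_MET, where 4 and 6 of the 8 markers that passed the filter were higher, against 0 in NFE2L2_MET and 1 in CTNNB1_NFE2L2. The other 6 markers were too low to test. Sums over 6 B and plasma cell markers were 2.05 to 3.80 in WT, 3.67 to 4.11 in CTNNB1_NFE2L2 and 6.35 to 18.9 in the 3 groups with MET. The 5 neutrophil markers summed to 1.65 to 6.29 CPM in WT and 8.82 to 27.9 in NFE2L2_MET, where all 3 that could be tested were higher, against 0 in the other groups. Of 6 stellate cell and fibroblast markers, 4 were lower in CTNNB1_NFE2L2 and in CTNNB1_MET, 3 in CTNNB1_NFE2L2_MET and 1 in NFE2L2_MET. In each group with MET 1 was higher, against 0 in CTNNB1_NFE2L2. Reln, a marker on this list, had means of 37.6 CPM in WT, 34.7 in CTNNB1_NFE2L2, 168 in NFE2L2_MET, 271 in CTNNB1_MET and 307 in CTNNB1_NFE2L2_MET. The 6 markers summed to 244 to 583 CPM in WT, 129 to 209 in CTNNB1_NFE2L2 and 337 to 594 in the groups with MET. The 5 cholangiocyte markers summed to 9.88 to 19.0 CPM in WT, 6.93 to 10.5 in CTNNB1_MET, 22.2 to 35.0 in CTNNB1_NFE2L2, 30.4 to 41.4 in CTNNB1_NFE2L2_MET and 43.9 to 61.3 in NFE2L2_MET. Epcam made up most of the sums in the groups with NRF2, where its means were 20.3, 27.2 and 37.8 CPM in that order (0.779 in WT). Sox9 went from a mean of 13.1 CPM in WT to 6.63, 5.28 and 12.7. Of the 4 markers that could be tested, 1 was lower than WT in each group with β-catenin. In CTNNB1_NFE2L2_MET 2 were higher, in CTNNB1_NFE2L2 and NFE2L2_MET 1, and in CTNNB1_MET 0. Of 6 endothelium markers, 3 were higher and 2 lower in CTNNB1_NFE2L2_MET. In CTNNB1_NFE2L2 and NFE2L2_MET 3 were higher and in CTNNB1_MET 2, with 0 lower. Of 5 dendritic cell markers tested, 2 were higher and 1 lower in CTNNB1_NFE2L2_MET and 1 and 1 in CTNNB1_NFE2L2. In CTNNB1_MET and NFE2L2_MET 1 was higher and 0 lower. Of 6 plasmacytoid dendritic cell markers (Bst2 among them), 3 were higher in both groups with β-catenin and NRF2. In the others 1 was, and 0 were lower. No marker on these lists was at 0 in a whole group. The 7 hepatocyte markers summed to 66852 to 93155 CPM in WT, 61800 to 67293 in CTNNB1_NFE2L2_MET, 121781 to 130951 in CTNNB1_MET, 125842 to 169745 in NFE2L2_MET and 23956 to 32234 in CTNNB1_NFE2L2. Alb made up most of these sums. In CTNNB1_NFE2L2_MET and CTNNB1_NFE2L2, 5 of the 7 markers were lower than in WT and 0 higher (median log2 fold changes of -1.10 and -1.06), and in CTNNB1_MET and NFE2L2_MET 2 were higher and 0 lower (medians of -0.12 and 0.06). Fewer cells of a type and less RNA per cell cannot be told apart in bulk tissue, and the part of these cells in the results that follow was not tested.

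The ligands themselves were almost absent from these libraries. Of 11 interferon genes in the tables, 9 had 0 counts in all 15 libraries, Ifnb1, Ifna1, Ifna2, Ifna4 and Ifna5 among them, which allows up to 0.145 to 0.213 CPM per library. Ifng had 10 counts and Ifnk 18 counts in all 15 libraries together, and none of the 11 could be tested. Of the 41 other pathway genes, 23 were higher and 4 lower than WT in CTNNB1_NFE2L2_MET, 16 and 9 in CTNNB1_NFE2L2, 11 and 0 in NFE2L2_MET, and 8 and 0 in CTNNB1_MET. Of all genes 26.5%, 24.5%, 13.5% and 11% were higher in that order, and 23.4%, 24.2%, 9.89% and 6.22% lower, so the 9 lower in CTNNB1_NFE2L2 are a share near that of all genes.

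The interferon gamma receptor gene Ifngr1 and the type III receptor gene Ifnlr1 were higher in all 4 transgenic groups, while neither chain of the type I receptor was higher in any. Ifngr1, the ligand-binding chain of the interferon gamma receptor, was at 14.3, 15.4 and 16 CPM in WT and 82.6, 75.3 and 49.1 in CTNNB1_MET, and its log2 difference from WT was 2.17 ± 0.17 (adjusted p = 5.15e-07) there and 2.01 ± 0.17 (adjusted p = 1.88e-07) in CTNNB1_NFE2L2_MET. In CTNNB1_NFE2L2 and NFE2L2_MET the differences were 1.19 ± 0.17 and 1.07 ± 0.17. The 3 WT libraries lay below every transgenic library. Ifnlr1, the specific chain of the interferon lambda receptor, stood at 0.144, 0.0593 and 0.128 CPM in WT, no more than a few reads per library, and at 4.97, 2.40 and 3.16 in CTNNB1_NFE2L2_MET (adjusted p = 2.68e-06). For CTNNB1_MET its adjusted p was 0.0124, and 0.0842 with counts from a single strand, 0.0649 without the libraries marked as added and 0.0544 to 0.0553 without WT replicate 2 or CTNNB1_MET replicate 1. Il10rb, the chain that type III interferon shares with interleukin 10, was higher in the 3 groups with NRF2, from 0.71 ± 0.15 in CTNNB1_NFE2L2 to 1.16 ± 0.15 in CTNNB1_NFE2L2_MET, and so was Ifngr2, from 0.64 ± 0.14 to 0.81 ± 0.14. Ifnar2 was lower in CTNNB1_NFE2L2_MET, at -0.75 ± 0.12 (adjusted p = 7.03e-05), and in CTNNB1_NFE2L2, at -0.67 ± 0.12 (adjusted p = 0.000226). Ifnar1 was lower in CTNNB1_NFE2L2, at -0.32 ± 0.08 (adjusted p = 0.00440), and the adjusted p was 0.228 under total-count scaling.

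The chemokine Cxcl9, a classical product of interferon gamma signalling, was 5.10 ± 0.48 (adjusted p = 3.61e-06) higher than WT in CTNNB1_NFE2L2_MET, 4.64 ± 0.48 (adjusted p = 4.41e-05) in CTNNB1_MET, 3.28 ± 0.48 (adjusted p = 0.000503) in NFE2L2_MET and 1.91 ± 0.50 (adjusted p = 0.00743) in CTNNB1_NFE2L2. Mavs, the mitochondrial adaptor of RNA sensing, was lower in both groups with β-catenin and NRF2, at -0.80 ± 0.13 (adjusted p = 9.83e-05) in CTNNB1_NFE2L2_MET and -0.91 ± 0.13 (adjusted p = 3.74e-05) in CTNNB1_NFE2L2. The kinase gene Ikbke was higher by 0.68 ± 0.13 (adjusted p = 0.000389) in CTNNB1_NFE2L2_MET and 0.82 ± 0.13 (adjusted p = 0.000329) in NFE2L2_MET. Sp110, a nuclear body gene, was higher by 0.94 ± 0.21 (adjusted p = 0.00192) in the triple group, where Tyk2, a kinase at the type I receptor, was higher by 0.57 ± 0.10 (adjusted p = 0.000334) and the chemokine Cxcl10 by 3.77 ± 0.70 (adjusted p = 0.000517). These differences were not confined to that group. Mean Cxcl10 was 0.368 CPM in WT, 1.99 in CTNNB1_NFE2L2, 2.32 in NFE2L2_MET, 2.75 in CTNNB1_MET and 4.87 in the triple group. Of the 3 interferon-induced chemokines, 2 were higher than WT in every transgenic group, and 1 was lower in CTNNB1_NFE2L2. Among all genes 11 to 26.5% were higher in these groups, and 24.2% were lower in CTNNB1_NFE2L2. In CTNNB1_NFE2L2, means were 3.98 CPM for Sp110 (2.44 in WT) and 37.5 for Tyk2 (30.9 in WT). Pias1, an inhibitor of STAT signalling, passed in no group.

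All 3 nucleic acid sensors were higher than WT in the triple group, a count that was 1 without WT replicate 1 or WT replicate 3. In that group 26.5% of all genes were higher. Ifih1, which encodes the RNA sensor MDA5, was at 14.6, 20.5 and 14.4 CPM in WT and 24.6, 23.2 and 30.5 in NFE2L2_MET, with no overlap and a difference of 0.66 ± 0.14 (adjusted p = 0.00434). In CTNNB1_NFE2L2_MET Ifih1 was higher by 0.44 ± 0.14 (adjusted p = 0.0189), and the adjusted p was 0.0727 with counts from a single strand, 0.0523 in a fit of these groups alone, 0.190 without the libraries marked as added and 0.0605 to 0.0794 without WT replicate 1, WT replicate 3 or CTNNB1_NFE2L2_MET replicate 3. Dhx58, which encodes the related LGP2, was at 5.54, 9.43 and 5.39 CPM in WT and 12.6, 12.2 and 14.5 in NFE2L2_MET. That difference was 0.94 ± 0.19 (adjusted p = 0.00248), and every NFE2L2_MET library was above every WT library. Zbp1 was at 17.4, 14.8 and 19.8 CPM in CTNNB1_NFE2L2_MET, 16.3, 9.21 and 12.2 in CTNNB1_MET, 5.99, 6.53 and 5.78 in CTNNB1_NFE2L2 and 5.95, 7.99 and 6.53 in NFE2L2_MET. It was higher than WT in CTNNB1_NFE2L2_MET by 2.21 ± 0.56 (adjusted p = 0.00608), and the adjusted p was 0.0577 in a fit of these groups alone. Its differences in the other groups, from 0.71 ± 0.58 to 1.75 ± 0.57, did not pass.

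The 4 transcription factor genes behaved differently from each other. Irf7, the factor that amplifies type I interferon responses, was at 7.12, 13 and 4.75 CPM in WT, 30.1, 23.3 and 31.6 in CTNNB1_NFE2L2_MET and 42.8, 36.4 and 27.4 in CTNNB1_NFE2L2. These last 2 groups lay above all WT libraries, and their differences were 1.76 ± 0.29 (adjusted p = 0.000228) and 2.09 ± 0.29 (adjusted p = 6.53e-05). In CTNNB1_MET and NFE2L2_MET, Irf7 was at 15.3, 13.3 and 12 and 10.5, 15.3 and 16 CPM, which overlap WT replicate 2, and neither difference passed (0.70 ± 0.30, adjusted p = 0.128, and 0.74 ± 0.30, adjusted p = 0.0887). Irf7 was higher in CTNNB1_NFE2L2_MET than in CTNNB1_MET by 1.07 ± 0.28 (adjusted p = 0.01).

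Irf9, the DNA-binding part of the type I complex, was at 16, 23.4 and 16.4 CPM in WT, 32.4, 31.7 and 32 in CTNNB1_MET, 26.5, 35.4 and 31.3 in NFE2L2_MET and 26.7, 32.9 and 32.5 in CTNNB1_NFE2L2_MET. Each of these groups with MET lay above WT, with differences of 0.78 ± 0.15 (adjusted p = 0.00295), 0.73 ± 0.15 (adjusted p = 0.00332) and 0.72 ± 0.15 (adjusted p = 0.00115). In CTNNB1_NFE2L2, the group without MET, Irf9 was at 25.4, 21.1 and 19.2 CPM, which overlaps WT, with a difference of 0.23 ± 0.15 (adjusted p = 0.238). Irf1, an early target of interferon gamma, was at 44.6, 26.6 and 27.6 CPM in WT and 47.9, 51.2 and 51.5 in CTNNB1_NFE2L2_MET. The triple group lay above WT with a difference of 0.61 ± 0.16 (adjusted p = 0.00620), and the adjusted p was 0.0827 without the libraries marked as added. The other 3 groups lay within the WT range, at 32.3 to 44.1 CPM.

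Stat2, a part of the type I complex, went the other way in CTNNB1_NFE2L2. It was at 56.7, 79.7 and 53.2 CPM in WT and 47.9, 42.4 and 39 in CTNNB1_NFE2L2. No library of that group reached the WT range, and the difference was -0.55 ± 0.15 (adjusted p = 0.00696), and the adjusted p was 0.0563 under total-count scaling and 0.0580 without WT replicate 2. Against NFE2L2_MET, where Stat2 was at 73, 96 and 70.1 CPM, the difference was -0.89 ± 0.15 (adjusted p = 0.000317), in a comparison added after the data were seen.

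The Ifit, Oas and Mx families stand here for the type I arm. Of these 10 genes, 10 were higher than WT in CTNNB1_NFE2L2, 9 in CTNNB1_NFE2L2_MET, 7 in NFE2L2_MET and 5 in CTNNB1_MET, and none was lower. The shares of all genes that were higher ran in a similar order, at 24.5%, 26.5%, 13.5% and 11%, and the differences between the counts were not tested. Ifit1, Ifit3 and Oas1a held in all 4 groups whichever library was left out. Median sums of the macrophage and Kupffer cell markers stood at 359 CPM in WT, 549 in CTNNB1_MET, 699 in NFE2L2_MET, 745 in CTNNB1_NFE2L2 and 1012 in CTNNB1_NFE2L2_MET. Mx1, a GTPase that blocks influenza and related viruses, had the largest difference from WT of the 40. It stood at 0.216, 0.475 and 0.257 CPM in WT, where 3 to 8 reads were counted per library, 1.35, 2.27 and 0.992 in CTNNB1_MET and 7.37, 3.66 and 10.1 in NFE2L2_MET. In CTNNB1_NFE2L2 it reached 32.5, 35.3 and 31 CPM and in CTNNB1_NFE2L2_MET 48.8, 32.9 and 38.1. The groups thus formed steps, with WT below CTNNB1_MET, CTNNB1_MET below NFE2L2_MET, and NFE2L2_MET below both groups with β-catenin and NRF2, and no library crossed a step. Log2 differences from WT were 6.92 ± 0.43 (adjusted p = 3.31e-08) in CTNNB1_NFE2L2_MET, 6.64 ± 0.43 (adjusted p = 4.34e-08) in CTNNB1_NFE2L2 and 4.43 ± 0.47 (adjusted p = 1.71e-05) in NFE2L2_MET. In CTNNB1_MET the difference was 2.19 ± 0.58 (adjusted p = 0.0200), and the adjusted p was 0.0678 without the libraries marked as added and 0.0679 to 0.0713 without WT replicate 1, WT replicate 3 or CTNNB1_MET replicate 2.

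Oas3, one of the synthetases that make the RNase L activator 2-5A, was at 0.288, 0.178 and 0.192 CPM in WT (3 to 4 reads per library) and 0.306, 0.638 and 0.418 in CTNNB1_MET, a difference of 1.02 ± 0.48 (adjusted p = 0.159). It was at 0.766, 0.665 and 1.20 CPM in NFE2L2_MET, 5.02, 3.24 and 2.89 in CTNNB1_NFE2L2 and 3.28, 2.55 and 2.63 in CTNNB1_NFE2L2_MET. All 3 groups with NRF2 lay above every library without it, with differences from WT of 1.99 ± 0.44 (adjusted p = 0.00435), 4.06 ± 0.39 (adjusted p = 7.79e-07) and 3.66 ± 0.39 (adjusted p = 2.38e-06) that rest on few WT reads. For NFE2L2_MET the adjusted p was 0.132 with counts from a single strand. Oas1a, another of the synthetases, was higher in all 4 groups. From 0.503, 1.07 and 0.513 CPM in WT it went to 3.92, 3.76 and 3.34 in CTNNB1_MET, 2.95, 3.66 and 3.90 in NFE2L2_MET, 9.52, 8.0 and 6.11 in CTNNB1_NFE2L2 and 13.9, 10.8 and 7.88 in CTNNB1_NFE2L2_MET. The 2 groups with β-catenin and NRF2 were again the highest, with differences of 3.47 ± 0.30 (adjusted p = 2.98e-07) and 3.93 ± 0.30 (adjusted p = 8.36e-08) against 2.36 ± 0.32 and 2.30 ± 0.32 in CTNNB1_MET and NFE2L2_MET.

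Oas2, Oasl1 and Oasl2 did not pass in CTNNB1_MET, where their log2 differences from WT were -0.08 ± 0.42, -0.07 ± 0.34 and 0.48 ± 0.38 (adjusted p = 0.919, 0.912 and 0.416). In CTNNB1_NFE2L2 the same genes were higher by 2.51 ± 0.37, 2.47 ± 0.31 and 2.53 ± 0.34 (adjusted p = 6.37e-05, 1.15e-05 and 2.55e-05). Oasl1, known to hold back Irf7 translation, was at 14.3, 12.3 and 10.1 CPM in CTNNB1_NFE2L2 and 6.09, 5.77 and 4.91 in CTNNB1_NFE2L2_MET, so it was lower where MET had been added, at -1.13 ± 0.28 (adjusted p = 0.00818). The 2 groups did not overlap. Ifit1, which binds viral RNA, was higher than WT by 2.20 ± 0.36 (adjusted p = 0.000143) in CTNNB1_NFE2L2_MET, 2.09 ± 0.37 (adjusted p = 0.000909) in NFE2L2_MET, 1.82 ± 0.37 (adjusted p = 0.000833) in CTNNB1_NFE2L2 and 1.78 ± 0.37 (adjusted p = 0.00423) in CTNNB1_MET. For its partner Ifit3 the 4 differences ran from 1.57 ± 0.27 in NFE2L2_MET to 2.07 ± 0.27 in CTNNB1_NFE2L2. Mx2, the neighbour of Mx1, was at 6.83, 9.55 and 7.25 CPM in WT and 8.91, 8.46 and 9.54 in CTNNB1_NFE2L2_MET, which overlap, with a difference of 0.18 ± 0.19 (adjusted p = 0.441).

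Isg15 and its protease gene Usp18 were higher in every transgenic group, and Usp18 was highest in the groups with β-catenin. Usp18 was at 1.87, 2.14 and 1.54 CPM in WT and 4.60, 6.79 and 6.30 in NFE2L2_MET. It was at 31.1, 21.4 and 16.2 CPM in CTNNB1_MET, 22.6, 28.7 and 25.9 in CTNNB1_NFE2L2 and 35, 22 and 25.2 in CTNNB1_NFE2L2_MET. Every library with mutant β-catenin was above every NFE2L2_MET library, and these were above every WT library. Differences from WT were 3.88 ± 0.28 (adjusted p = 6.48e-08), 3.79 ± 0.28 (adjusted p = 8.11e-08) and 3.62 ± 0.28 (adjusted p = 8.19e-07) in the 3 groups with β-catenin and 1.66 ± 0.29 (adjusted p = 0.00109) in NFE2L2_MET. Usp18 was higher in CTNNB1_NFE2L2_MET than in NFE2L2_MET by 2.22 ± 0.24 (adjusted p = 1.04e-05). Its differences between CTNNB1_NFE2L2_MET and CTNNB1_MET (0.26 ± 0.22, adjusted p = 0.387) or CTNNB1_NFE2L2 (0.09 ± 0.22, adjusted p = 0.794) did not pass. Isg15 itself was at 6.54, 6.82 and 4.62 CPM in WT, 14.2, 9.71 and 14.3 in CTNNB1_MET and 11.1, 11.2 and 15.6 in NFE2L2_MET. In CTNNB1_NFE2L2 it was at 20.5, 21 and 16 CPM and in CTNNB1_NFE2L2_MET at 17.4, 21.5 and 17.8. WT lay below all 4 groups, with differences of 1.09 ± 0.20 (adjusted p = 0.00169), 1.07 ± 0.20 (adjusted p = 0.00145), 1.68 ± 0.20 (adjusted p = 6.75e-06) and 1.66 ± 0.20 (adjusted p = 6.8e-06) in the same order.

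**Figure D2:**
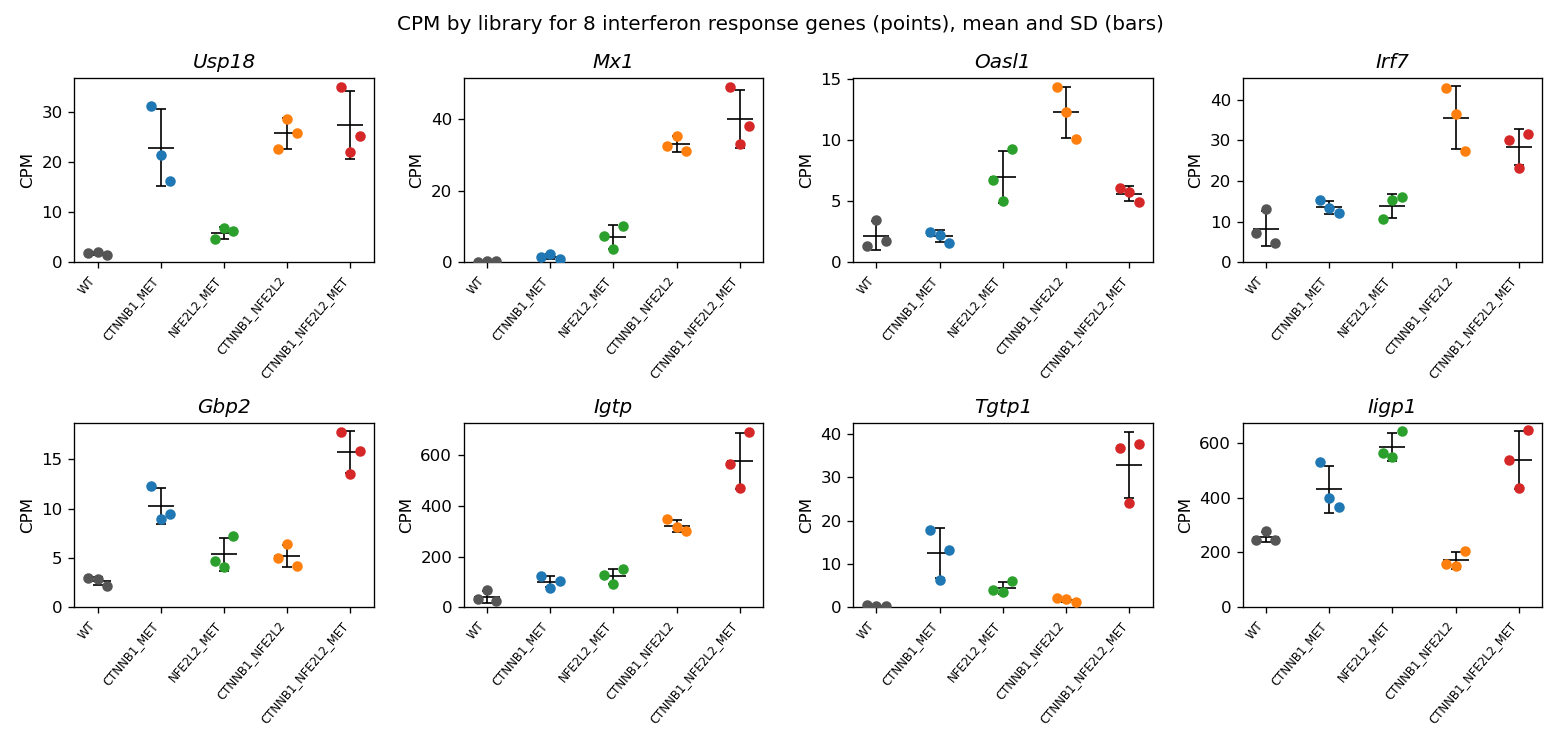
CPM of 8 members (vertical axes, each from 0) in the 5 groups (horizontal axes). Points are the 3 libraries of a group, the horizontal bar their mean and the error bar the SD. Usp18 is high in the 3 groups with β-catenin, and Mx1 and Oasl1 are highest in groups with NRF2. Irf7 is highest in the groups with both β-catenin and NRF2, and Gbp2 and Tgtp1 in those with β-catenin and MET. Iigp1 is lowest in CTNNB1_NFE2L2.

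Of the 8 other antiviral effectors, 7 were higher than WT in each of CTNNB1_NFE2L2_MET, CTNNB1_NFE2L2 and NFE2L2_MET, and 6 in CTNNB1_MET, with none lower. The shares of all genes that were higher were 26.5%, 24.5%, 13.5% and 11% in the same order. The count in CTNNB1_MET was 2 without WT replicate 1, CTNNB1_MET replicate 1 or CTNNB1_MET replicate 2. Bst2, the tether that holds budding virus on the cell surface, was at 169, 152 and 153 CPM in WT and highest in CTNNB1_MET at 322, 316 and 337. The other groups lay between, at 233 to 295 CPM, and no transgenic library overlapped WT. Its difference from WT was 1.04 ± 0.10 (adjusted p = 6.02e-06) in CTNNB1_MET and 0.63 ± 0.10 to 0.81 ± 0.10 in the other groups. Rsad2, which encodes viperin, was at 1.73, 1.13 and 1.99 CPM in WT and 11.4, 11.1 and 5.45 in CTNNB1_NFE2L2, with no overlap and a difference of 2.54 ± 0.31 (adjusted p = 7.97e-06). Trim30a, a regulator of innate signalling, was at 1.58, 2.19 and 2.24 CPM in WT, 8.99, 7.21 and 5.89 in CTNNB1_NFE2L2 and 8.29, 7.07 and 9.44 in CTNNB1_NFE2L2_MET. Its differences there were 1.87 ± 0.25 (adjusted p = 2.08e-05) and 2.03 ± 0.25 (adjusted p = 7.98e-06). Ifi44 was counted 3 to 5 times per WT library and was higher in all 4 groups, from 2.94 ± 0.53 (adjusted p = 0.00131) in CTNNB1_MET to 3.94 ± 0.50 (adjusted p = 1.29e-05) in CTNNB1_NFE2L2. Parp14, an ADP-ribosyltransferase, was at 14.1, 26.5 and 13.2 CPM in WT and 39.2, 41.1 and 41.1 in NFE2L2_MET, a difference of 1.17 ± 0.19 (adjusted p = 0.000678) without overlap. Its partner Parp9 differed from WT by -0.27 ± 0.15 to 0.20 ± 0.15, none of which passed.

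The Gbp, Irgm and Igtp genes, which stand for the interferon gamma arm, had their highest mean in the triple group. Of these 8 genes, all 8 were higher than WT in CTNNB1_NFE2L2_MET, 6 in CTNNB1_NFE2L2, 7 in CTNNB1_MET and 5 in NFE2L2_MET, the last count being 3 without NFE2L2_MET replicate 3. None was lower. The shares of all genes that were higher were 26.5%, 24.5%, 11% and 13.5% in the same order, and the differences between the counts were not tested. Summed T and NK cell markers had medians of 6.22 CPM in WT, 6.47 in NFE2L2_MET, 5.80 in CTNNB1_NFE2L2, 12.4 in CTNNB1_MET and 13.5 in CTNNB1_NFE2L2_MET. The CTNNB1_NFE2L2 median lay within the range of the WT libraries (5.75 to 6.90), and replicate 1 of that group was at 10.6. Of the 8 markers tested there, 1 was higher than WT and 0 lower, with a median log2 fold change of 0.63. Irgm1, which controls the other GTPases and autophagy, was at 27, 30.4 and 22.4 CPM in WT and 79.3, 72 and 80.9 in CTNNB1_NFE2L2_MET. In CTNNB1_MET it was at 40.03, 34.7 and 38.1, in CTNNB1_NFE2L2 at 34.8, 36.6 and 34.8 and in NFE2L2_MET at 33.7, 39.1 and 42.1 CPM. Every library of the triple group was above all other libraries, with differences of 1.01 ± 0.11 (adjusted p = 9.43e-06) over NFE2L2_MET, 1.04 ± 0.11 (adjusted p = 7.78e-06) over CTNNB1_MET and 1.13 ± 0.11 (adjusted p = 1.11e-05) over CTNNB1_NFE2L2. The groups with a pair of transgenes were close to each other, with differences of -0.09 ± 0.11, 0.03 ± 0.11 and -0.11 ± 0.11, none of which passed.

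Gbp2, one of the guanylate-binding proteins that coat microbial compartments, was at 2.95, 2.91 and 2.18 CPM in WT, 4.71, 4.13 and 7.22 in NFE2L2_MET and 4.98, 6.43 and 4.17 in CTNNB1_NFE2L2. It was at 12.3, 8.93 and 9.50 CPM in CTNNB1_MET and 17.8, 13.5 and 15.9 in CTNNB1_NFE2L2_MET. The groups that join β-catenin and MET lay above all other libraries, with differences from WT of 1.94 ± 0.24 (adjusted p = 4.85e-05) and 2.55 ± 0.23 (adjusted p = 5e-07) against 0.95 ± 0.24 (adjusted p = 0.00420) in CTNNB1_NFE2L2. Igtp, whose product is also known as IRGM3, was at 31.9, 68.9 and 24 CPM in WT, 122.4, 78.2 and 104 in CTNNB1_MET, 126, 91.7 and 151 in NFE2L2_MET, 347, 319 and 300.5 in CTNNB1_NFE2L2 and 568, 472 and 692 in CTNNB1_NFE2L2_MET. Both groups with β-catenin and NRF2 lay above all others, with differences from WT of 3.79 ± 0.35 (adjusted p = 2.08e-06) and 2.95 ± 0.34 (adjusted p = 1.52e-05). The order of the groups thus differed between Igtp and Gbp2. Of the remaining genes, Gbp3, Gbp4, Gbp6 and Gbp7 were higher in CTNNB1_NFE2L2_MET by 2.67 ± 0.29, 1.63 ± 0.25, 1.87 ± 0.25 and 1.74 ± 0.29, with adjusted p from 2.34e-06 to 0.000211.

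The 3 other immunity-related GTPases were all higher than WT in the triple group and all higher there than in CTNNB1_NFE2L2, the group without MET. Among all genes 26.5% and 13.1% were higher in these 2 comparisons. Tgtp1, an effector GTPase induced by interferon gamma in T cells and other cells, had 6 reads in each WT library, or 0.431, 0.356 and 0.385 CPM. It was at 2.08, 1.83 and 1.22 CPM in CTNNB1_NFE2L2, 4.01, 3.46 and 5.96 in NFE2L2_MET, 17.8, 6.31 and 13.3 in CTNNB1_MET and 36.6, 24.1 and 37.8 in CTNNB1_NFE2L2_MET. Each group lay above the one named before it, without overlap. The differences from WT were 2.13 ± 0.55 (adjusted p = 0.00545), 3.51 ± 0.49 (adjusted p = 0.000197), 4.98 ± 0.46 (adjusted p = 5.7e-06) and 6.37 ± 0.45 (adjusted p = 8.14e-08). Tgtp1 was higher in CTNNB1_NFE2L2_MET than in CTNNB1_NFE2L2 by 4.25 ± 0.35 (adjusted p = 4.79e-06). Its near-identical neighbour Tgtp2 stood at 0.566 ± 0.417 CPM in WT and 3.53 ± 0.708 in CTNNB1_NFE2L2_MET (SD, n = 3), and how reads were shared between the copies was not tested.

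Iigp1, an effector GTPase of the same family, was the only GTPase gene of the 40 to be lower than WT in a group. It was at 245, 279 and 246 CPM in WT, 528, 397 and 364 in CTNNB1_MET, 563, 547 and 643 in NFE2L2_MET and 536, 434 and 645 in CTNNB1_NFE2L2_MET, against 157, 149 and 206 in CTNNB1_NFE2L2. The groups with MET lay above WT and the group without MET lay below it, with no overlap on either side. Differences from WT were 0.74 ± 0.17 (adjusted p = 0.00811) in CTNNB1_MET, 1.19 ± 0.17 (adjusted p = 0.000183) in NFE2L2_MET, 1.07 ± 0.17 (adjusted p = 0.000114) in CTNNB1_NFE2L2_MET and -0.59 ± 0.17 (adjusted p = 0.0104) in CTNNB1_NFE2L2. For CTNNB1_NFE2L2 the adjusted p was 0.0633 under total-count scaling and 0.0541 without CTNNB1_NFE2L2 replicate 2. For CTNNB1_MET the adjusted p was 0.0523 without CTNNB1_MET replicate 1. Iigp1 was higher in CTNNB1_NFE2L2_MET than in CTNNB1_NFE2L2 by 1.66 ± 0.18 (adjusted p = 1.81e-05). Ifi47 was at 6.90, 11.5 and 5.58 CPM in WT and 37.1, 25.9 and 35.9 in CTNNB1_NFE2L2_MET, without overlap and with a difference of 2.03 ± 0.24 (adjusted p = 6.92e-06).

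Averaged over each family, the type I mean was high in both groups with β-catenin and NRF2, and the interferon gamma mean was highest in the triple group. The mean log2 CPM of the 10 Ifit, Oas and Mx genes was above WT by 1.00 ± 0.21 in CTNNB1_MET, 1.64 ± 0.29 in NFE2L2_MET, 2.60 ± 0.11 in CTNNB1_NFE2L2_MET and 2.71 ± 0.27 in CTNNB1_NFE2L2 (SD of the group's 3 libraries). The last 2 overlapped. For the 8 Gbp, Irgm and Igtp genes the triple group stood at 2.18 ± 0.15 and above all other libraries. CTNNB1_MET (1.21 ± 0.29), CTNNB1_NFE2L2 (1.12 ± 0.10) and NFE2L2_MET (0.81 ± 0.26) overlapped each other and are not ordered. Within a library, the type I mean minus the interferon gamma mean was -2.71 ± 0.10 in WT, -2.92 ± 0.42 in CTNNB1_MET, -2.29 ± 0.12 in CTNNB1_NFE2L2_MET, -1.88 ± 0.23 in NFE2L2_MET and -1.12 ± 0.22 in CTNNB1_NFE2L2 (SD, n = 3). These means are not comparable between genes in level, since counts grow with transcript length, but each library holds the same genes. CTNNB1_NFE2L2 lay furthest to the type I side and did not overlap the other groups. CTNNB1_MET was the only transgenic group whose mean lay further to the interferon gamma side than WT, by less than its own SD, and 1 of its libraries lay on the other side. The distance of the triple group from WT was 0.43 with these lists and 0.12 with the wider lists of type I and interferon gamma genes, and that of NFE2L2_MET was 0.84 and 0.53. No p is given for these means, because the members were chosen with results known.

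**Figure D3:**
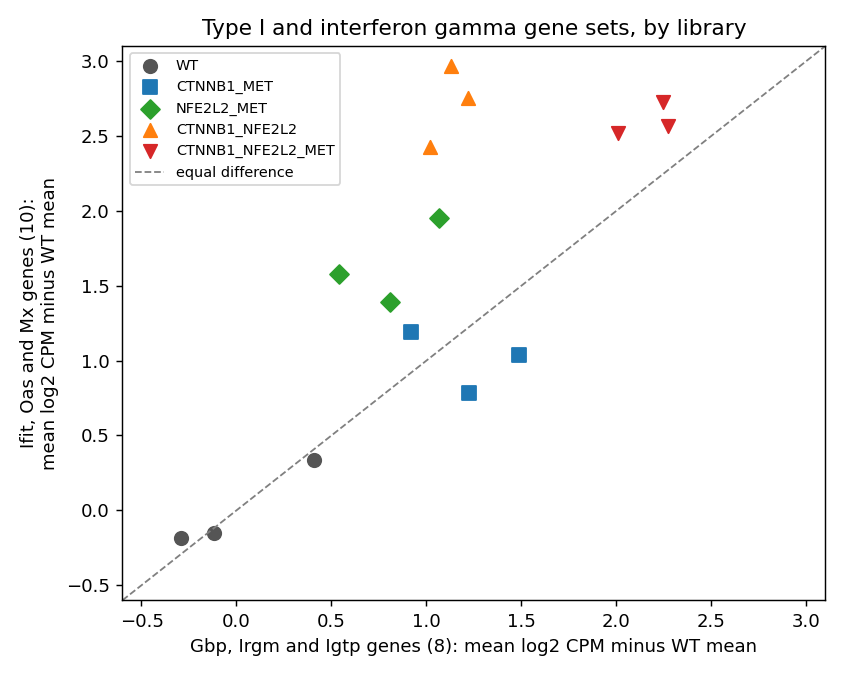
Each point is 1 library. The horizontal axis is the mean log2 CPM of the 8 Gbp, Irgm and Igtp genes and the vertical axis that of the 10 Ifit, Oas and Mx genes, both minus the WT mean, with a dashed line where the differences are equal. CTNNB1_NFE2L2 and NFE2L2_MET lie above the line, CTNNB1_MET lies on both sides of it and CTNNB1_NFE2L2_MET is high on both axes.

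The triple group was then compared with each group that lacked one of its transgenes. A transgene is called added as a name for such a comparison of separate groups. Cell markers also differed between the groups, and the effect of the transgene apart from these was not tested. When β-catenin was added to NRF2 and MET, 23 members were higher and 1 lower (16.4% and 14.3% of all genes, 30.7% in either direction). All 8 Gbp, Irgm and Igtp genes and 6 of the 10 type I genes were among the higher. Tgtp1 was higher by 2.87 ± 0.32 (adjusted p = 1.92e-05), Mx1 by 2.49 ± 0.28 (adjusted p = 2.51e-05), Igtp by 2.23 ± 0.33 (adjusted p = 0.000267) and Gbp2 by 1.55 ± 0.22 (adjusted p = 9.16e-05). Stat2 was the lower gene, at -0.47 ± 0.15 (adjusted p = 0.0261), and the adjusted p was 0.610 under total-count scaling, 0.0546 with the added mark as a term of the fit and 0.0731 to 0.147 without CTNNB1_NFE2L2_MET replicate 1, CTNNB1_NFE2L2_MET replicate 2 or NFE2L2_MET replicate 2.

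When NRF2 was added to β-catenin and MET, 20 members were higher and 1 lower (18.4% and 15.4% of all genes, 33.8% in either direction). Of the type I genes, 7 of 10 were higher. Mx1 was higher by 4.73 ± 0.34 (adjusted p = 4.05e-07), Oas3 by 2.64 ± 0.35 (adjusted p = 4.81e-05), Oas2 by 2.13 ± 0.38 (adjusted p = 0.000528), Oasl2 by 1.93 ± 0.33 (adjusted p = 0.000365), Oas1a by 1.56 ± 0.25 (adjusted p = 0.000202), Oasl1 by 1.41 ± 0.31 (adjusted p = 0.00280) and Ifit2 by 1.37 ± 0.26 (adjusted p = 0.000778). Of the 8 interferon gamma genes, 5 were higher, and 2 without CTNNB1_MET replicate 2 or 3 without CTNNB1_MET replicate 3, CTNNB1_NFE2L2_MET replicate 1 or CTNNB1_NFE2L2_MET replicate 3. Igtp was higher by 2.51 ± 0.33 (adjusted p = 0.000108) and Irgm1 by 1.04 ± 0.11, and both held under all settings tried. Bst2 was the lower gene, at -0.32 ± 0.10 (adjusted p = 0.0248), and the adjusted p was 0.722 under total-count scaling, 0.0611 in a fit of these groups alone, 0.0752 without the libraries marked as added and 0.0743 to 0.116 without CTNNB1_NFE2L2_MET replicate 1 or CTNNB1_MET replicate 3.

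When MET was added to β-catenin and NRF2, 11 members were higher and 2 lower (13.1% and 11.8% of all genes, 25% in either direction). The count of higher members was 7 without CTNNB1_NFE2L2 replicate 3 and 17 without WT replicate 2. None of the 10 type I genes was higher, and Oasl1 was lower, with 1 more lower without CTNNB1_NFE2L2 replicate 3. Of the 8 interferon gamma genes 6 were higher, among them Gbp2 at 1.60 ± 0.22 (adjusted p = 0.000148), Gbp3 at 1.14 ± 0.25 (adjusted p = 0.00449) and Irgm1 at 1.13 ± 0.11 (adjusted p = 1.11e-05). All 3 other GTPases were higher, with Ifi47 at 1.13 ± 0.22 (adjusted p = 0.00234) beside Tgtp1 and Iigp1. Rsad2 was the other lower gene, at -0.82 ± 0.27 (adjusted p = 0.0355), and the adjusted p was 0.0509 under total-count scaling, 0.0673 in a fit of these groups alone, 0.0993 without the libraries marked as added and 0.0884 to 0.141 without CTNNB1_NFE2L2_MET replicate 1, CTNNB1_NFE2L2_MET replicate 3, CTNNB1_NFE2L2 replicate 1 or CTNNB1_NFE2L2 replicate 2. These 3 comparisons share the triple group, so their lists of genes are not independent of each other.

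**Figure D4:**
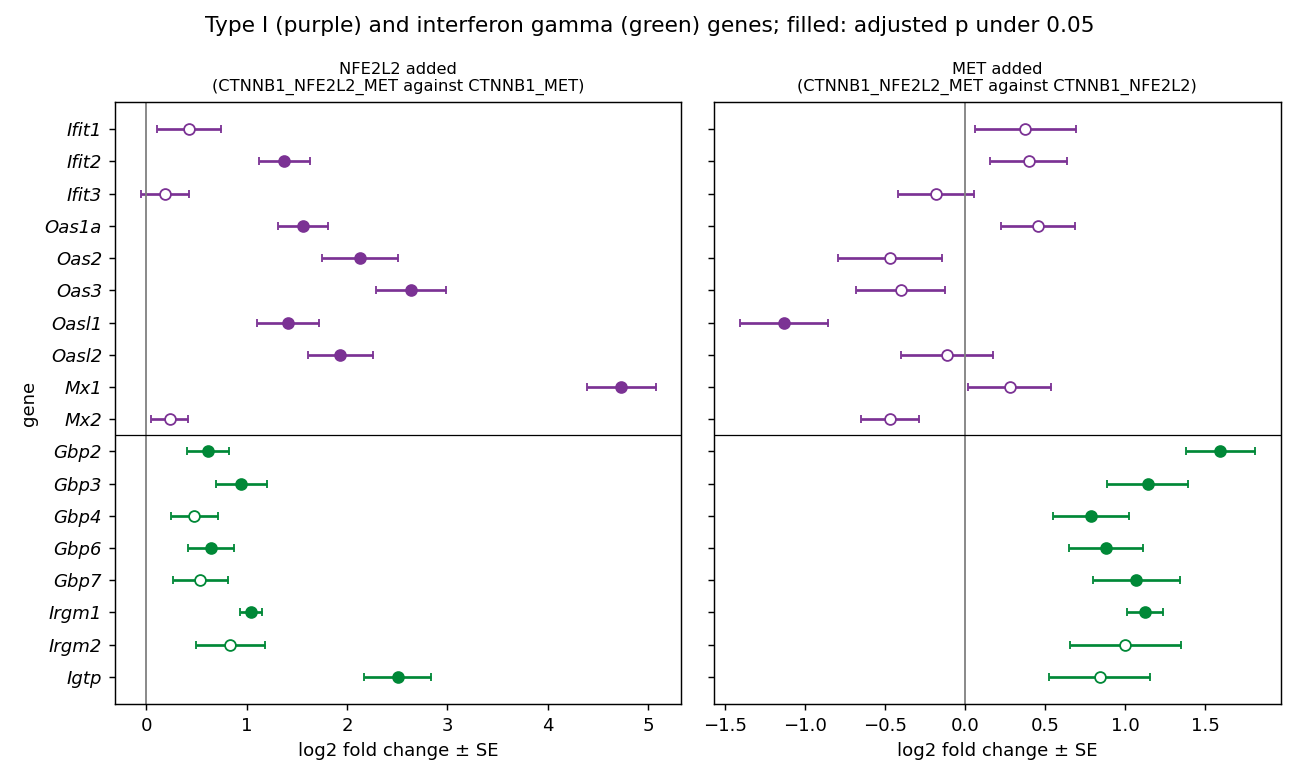
Log2 fold change ± SE (horizontal axes) of the 10 type I genes (purple) and the 8 interferon gamma genes (green) when NRF2 was added (left) and when MET was added (right), with filled points for an adjusted p under 0.05. On the left 7 purple and 5 green points are filled, all to the right of 0. On the right 6 green points are filled to the right of 0 and 1 purple point, Oasl1, to the left.

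The groups with a pair of transgenes were then compared with each other, in comparisons added after the data were seen. CTNNB1_NFE2L2 had 15 members higher and 5 lower than CTNNB1_MET (17.9% and 17.2% of all genes, 35.1% in either direction). The higher ones held 8 of the 10 type I genes, among them Mx1 at 4.46 ± 0.34 (adjusted p = 3.4e-07), Oas3 at 3.04 ± 0.35 (adjusted p = 7.48e-06), Oas2 at 2.60 ± 0.37 (adjusted p = 7.46e-05) and Oasl1 at 2.54 ± 0.31 (adjusted p = 1.48e-05). Tgtp1 was lower at -2.86 ± 0.35 (adjusted p = 2.8e-05), Iigp1 at -1.33 ± 0.17 (adjusted p = 2.83e-05) and Gbp2 at -0.98 ± 0.22 (adjusted p = 0.00264), while Igtp was higher by 1.66 ± 0.33 (adjusted p = 0.00149). The remaining lower genes were Stat2 at -0.55 ± 0.15 (adjusted p = 0.00987) and Irf9 at -0.55 ± 0.15 (adjusted p = 0.0108). For Stat2 the adjusted p was 0.0894 under total-count scaling. For Irf9 it was 0.0963 under total-count scaling and 0.0507 without CTNNB1_NFE2L2 replicate 3.

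NFE2L2_MET had 4 members higher and 5 lower than CTNNB1_MET (7.36% and 6.96% of all genes, 14.3% in either direction), or 2 and 6 with total-count scaling. The count of higher members was 2 without CTNNB1_MET replicate 2, CTNNB1_MET replicate 3, NFE2L2_MET replicate 3 or CTNNB1_NFE2L2_MET replicate 2. Mx1 was higher by 2.24 ± 0.36 (adjusted p = 0.000696) and Oasl1 by 1.73 ± 0.31 (adjusted p = 0.00140). Usp18 was lower at -1.96 ± 0.24 (adjusted p = 5.7e-05), Tgtp1 at -1.47 ± 0.32 (adjusted p = 0.00685) and Gbp2 at -0.93 ± 0.22 (adjusted p = 0.00966). CTNNB1_NFE2L2 had 14 members higher and 6 lower than NFE2L2_MET (18.3% and 18.9% of all genes, 37.2% in either direction), or 20 and 3 with total-count scaling, and 9 higher without CTNNB1_NFE2L2 replicate 1. Mx1 was higher by 2.21 ± 0.28 (adjusted p = 4.42e-05), Usp18 by 2.13 ± 0.24 (adjusted p = 9.82e-06), Oas3 by 2.07 ± 0.31 (adjusted p = 0.000123) and Irf7 by 1.35 ± 0.28 (adjusted p = 0.00206). Iigp1 was lower at -1.77 ± 0.18 (adjusted p = 2.06e-06) and Tgtp1 at -1.38 ± 0.37 (adjusted p = 0.00948).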

How the data were processed

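The authors deposited whole-number counts of reads per gene for each of the 15 libraries. Reads were trimmed with Trimmomatic and aligned with STAR to mm10, per the submitters' processing notes, with versions not given in the sources used here. Counts came from the unstranded column, so reads of overlapping or antisense genes cannot be told apart, and counts of near-identical copies are uncertain. Unmapped, multimapping, ambiguous and unassigned reads (8.69 to 25.9%, 4.81 to 6.45%, 1.48 to 1.96% and 6.85 to 9.74%) stayed out of library sizes and tests. Replicates differed by more than sampling noise.

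Genes were filtered by filterByExpr, scaled by TMM and fitted over all 15 libraries with 1 coefficient per group (edgeR 4.0.16 with limma 3.58.1, R 4.3.3, robust quasi-likelihood F test, two-sided), after the same steps were tested on simulated data. Adjusted p-values are Benjamini-Hochberg over 14098 genes at 0.05. The standard error is the log2 fold change over the square root of F. Means over gene families used log2 CPM with a prior count of 2, and the wider lists add the ISG15 system, Irf7, Rsad2, Cmpk2 and Ifi44 to the type I arm and Iigp1, Tgtp1 and Ifi47 to the interferon gamma arm. Alternatives were DESeq2 1.42.0, other scalings and filters, the single-strand column, leaving out each library, and the 3 libraries whose labels mark them as added, whose meaning the labels do not give.

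The members, gene lists and tests were chosen with earlier results of these data known. Values per library were given for Usp18, Isg15, Irf1, Irf7, Gbp2, Stat2, the 3 members of each role with the smallest p in any of 7 comparisons, and members called against most of their role. Of other pathway genes, the ligands, the receptors and the 2 genes of each list with the smallest p could be named. Tgtp2 and the 3 comparisons between groups with a pair of transgenes were chosen after values were seen. Promoter windows and positions are those of RefSeq on GRCm38.p6.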

Additional observations from a re-analysis of the deposited data

How the results depend on the processing

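No member reversed its direction past the threshold under any alternative. Of 225 calls of single members over 10 comparisons, 225 were kept with DESeq2's size factors, 225 with DESeq2, 221 with no filter on low counts, 215 with the added mark as a term of the fit, 210 with total-count scaling, 202 with single-strand counts and 190 without the libraries marked as added. In fits of 2 groups alone, 204 of 224 were kept. Leaving out each library in turn, the members called ranged from 33 to 38 in CTNNB1_NFE2L2_MET against WT, 15 to 27 in CTNNB1_MET against WT (15 without CTNNB1_MET replicate 1), 30 to 35 in CTNNB1_NFE2L2 against WT and 23 to 34 in NFE2L2_MET against WT. They ranged from 17 to 25 when β-catenin was added, 15 to 25 when NRF2 was added, 9 to 19 when MET was added, 16 to 23 in CTNNB1_NFE2L2 against CTNNB1_MET, 7 to 12 in NFE2L2_MET against CTNNB1_MET, 14 to 22 in CTNNB1_NFE2L2 against NFE2L2_MET and 35 to 39 in the joint test. The type I mean minus the interferon gamma mean, as a difference from WT, was 0.43 in CTNNB1_NFE2L2_MET (0.39 to 0.49 leaving out 1 library, 0.54 with a prior count of 0.5 and 0.12 with wider lists), -0.21 in CTNNB1_MET (-0.45 to -0.08), 1.59 in CTNNB1_NFE2L2 (1.47 to 1.68) and 0.84 in NFE2L2_MET (0.74 to 0.96, and 0.53 with wider lists). Among pathway genes that are not members, total-count scaling turned Irf3 from -0.23 to 0.007 in CTNNB1_NFE2L2_MET against WT, from -0.29 to 0.073 against NFE2L2_MET and from -0.30 to 0.014 in CTNNB1_NFE2L2 against NFE2L2_MET, and Pias1 from -0.07 to 0.293 in CTNNB1_NFE2L2_MET against NFE2L2_MET. The cause of these shifts was not tested. No paired analysis was possible because libraries of different groups share no replicate number in the labels. Few WT reads limit the fold changes of Mx1, Oas3, Ifi44 and Tgtp1.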
